A study of Homo sapiens
Mus musculus with 5 samples.

Results

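The genes of the major histocompatibility complex (MHC) and of antigen processing were followed in brain tumors and in orthotopic lung tumors grown in mice, separately for the cancer cells and for the host. They were all symbols that begin with HLA- in the human table or H2- in the mouse table, together with the human and mouse forms of 11 named genes of the same pathways. This gave 72 of 50152 genes, 25 of 25524 in the human table and 47 of 24628 in the mouse table. The symbol H2-Ke6, which the pattern also takes in, is not an MHC chain. Human TAP2 and CIITA were not analysed here.

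MHC class I molecules pair a polymorphic heavy chain with beta-2 microglobulin and display peptides that the proteasome cuts from proteins made inside the cell. The TAP transporter carries these peptides into the endoplasmic reticulum, where tapasin helps to load them. Class II molecules display peptides from material the cell has taken up, and are made mainly by dendritic cells, macrophages and B cells. NLRC5 and CIITA are the transcriptional coactivators of the class I and class II genes.

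The libraries came from 3 brain tumors and 2 orthotopic lung tumors. Both groups were grown from H2030-BrM3, a human lung adenocarcinoma line derived for its growth in the brain, in nude mice (athymic nu/nu), whose missing thymus leaves them with few T cells. Cells for the lung tumors were given through the trachea, and the route for the brain tumors is not given in the sources used here. No other genotype, drug, age or time was given. The labels do not tie each tumor to an animal of its own, and p-values cover the spread between these libraries alone, which may be technical.

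Expression was deposited as RPKM, which corrects read numbers for gene length and sequencing depth. Reads recovered from these values numbered 2445463 to 8418107 in the human and 231044 to 8634688 in the mouse table, and the fewest mouse reads were in lung tumor 1. A value of 0 was listed there for 11897 mouse genes, and elsewhere for 3756 to 6122. Astrocyte markers summed to 12000, 13145 and 10703 RPKM in the brain tumors, against 187.2 and 151 RPKM in the lung tumors. Lung epithelial markers summed to 54.9, 39.7 and 17.5 RPKM in the brain tumors, against 948 and 64785 RPKM in the lung tumors. These host markers matched the labels, but the lung epithelial sum differed greatly between the 2 lung tumors. Of the recovered reads, 75.6%, 56.5% and 22.1% were human in the brain tumors, against 96.6% and 41.4% in the lung tumors. In the human table KRT8, KRT18, EPCAM and MUC1 were present, while KRT19 did not exceed 0.458 RPKM.

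In the cancer cells, 0 of the 17 class I genes that could be tested passed the test between brain and lung tumors. Genes were tested where the RPKM reached 1 in at least 2 libraries, with limma on log2(RPKM + 1), and called at a Benjamini-Hochberg adjusted p under 0.05. The same rule called 0.00693% of all tested human genes, so few calls were made anywhere. At an unadjusted p under 0.05 there were 6 of the 17, where 1517 of all 14423 tested human genes passed, and 0 were called with limma's voom on the recovered reads. Values of 9 genes lay below both lung tumors in every brain tumor and those of 1 gene lay above, where 12.3% and 17.4% of all tested human genes did so. Their median log2 fold change was -0.54, beside 0.09 over all tested human genes.

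HLA-B and HLA-C encode classical class I heavy chains and lie on human chromosome 6 (GRCh38). HLA-B, at 31353875 to 31357179, had 60.3, 14.9 and 45.4 RPKM in the brain tumors, against 60.4 and 194 RPKM in the lung tumors. Brain tumor 1 nearly equalled lung tumor 1, and the log2 fold change was -1.62 (SE 0.66, limma adjusted p = 0.473). HLA-C, at 31268749 to 31272092, had 30.3, 8.45 and 18.1 RPKM in the brain tumors, against 33.1 and 68.2 RPKM in the lung tumors. Brain tumor 2 was lowest and lung tumor 2 highest, as for HLA-B, and the log2 fold change was -1.45 (SE 0.56, limma adjusted p = 0.471).

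HLA-B and HLA-C stood in a similar proportion in all 5 tumors. The ratio of HLA-C to HLA-B RPKM was 0.502, 0.566 and 0.3998 in the brain tumors, against 0.548 and 0.352 in the lung tumors, and the groups overlapped. The ratio of HLA-B to B2M, the shared light chain, was 0.241, 0.121 and 0.221 in the brain tumors, against 0.454 and 0.492 in the lung tumors, and these did not overlap. They rested on 90 to 683 HLA-B reads and 372 to 1569 B2M reads per library. The HLA genes are near-identical over long stretches, and how the authors assigned shared reads is not stated in the labels, so values of single HLA genes are uncertain.

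**Figure D1:**
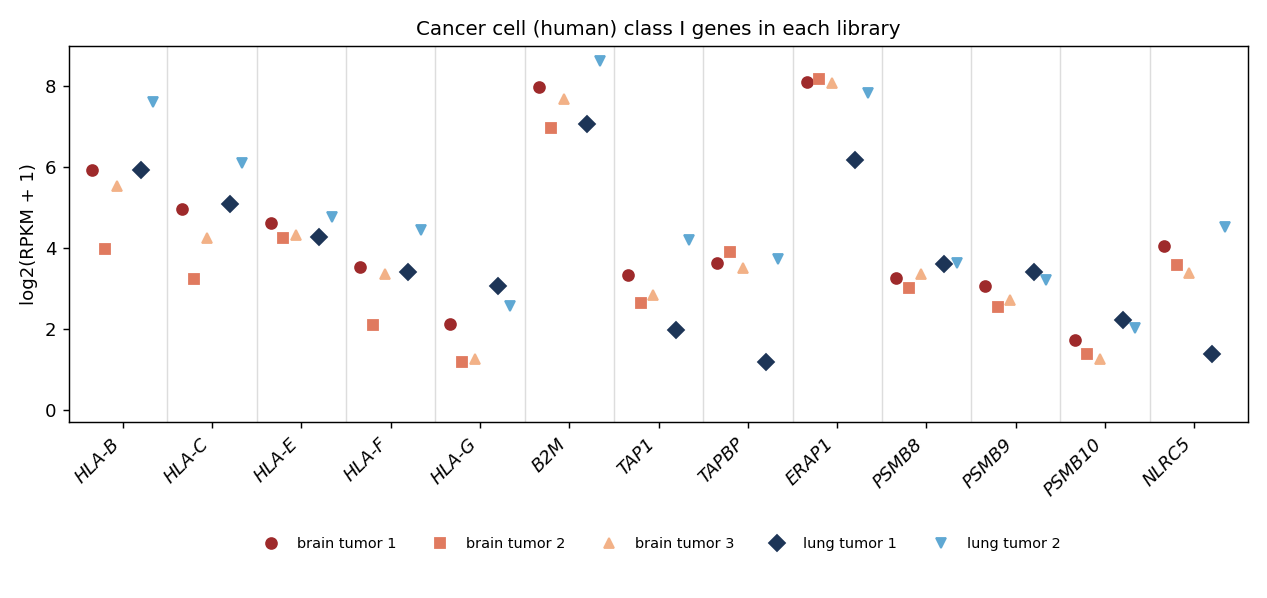
Levels of cancer-cell (human) class I genes as log2(RPKM + 1), with 1 point per library, brain tumors left of lung tumors for each gene. The 2 lung tumors lie far apart for HLA-B, B2M, TAP1, TAPBP, ERAP1 and NLRC5, and brain tumor points overlap their range for B2M, TAP1, TAPBP and NLRC5.

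Beta-2 microglobulin, the invariant partner of every class I heavy chain, showed no separation. B2M, on human chromosome 15 at 44711517 to 44718145, had 251, 124 and 205 RPKM in the brain tumors, against 133 and 394 RPKM in the lung tumors. The groups overlapped, and the log2 fold change was -0.30 (SE 0.51, limma adjusted p = 0.832). The heavy chain HLA-E, a ligand of NKG2 receptors of natural killer cells, also overlapped, with 23.7, 18.0 and 19.0 RPKM in the brain tumors, against 18.3 and 26.4 RPKM in the lung tumors. HLA-G, best known from the placenta, had 3.41, 1.28 and 1.40 RPKM in the brain tumors, against 7.34 and 4.93 RPKM in the lung tumors, which did not overlap. The pseudogenes HLA-H and HLA-J were also lower in every brain tumor, with log2 fold changes of -1.02 and -1.24.

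The genes that cut, trim and load the peptides did not move as a group. The immunoproteasome subunits PSMB8, PSMB9 and PSMB10, which replace standard catalytic subunits, were lower in each brain tumor than in both lung tumors. PSMB9 had 7.40, 4.87 and 5.63 RPKM in the brain tumors, against 9.76 and 8.33 RPKM in the lung tumors, and the log2 fold changes of the 3 subunits were -0.40, -0.54 and -0.67. In brain tumor 3 the 3 subunits rested on 26, 11 and 3 reads. ERAP1, an aminopeptidase that trims peptides in the endoplasmic reticulum, had 274, 288 and 269.6 RPKM in the brain tumors, against 71.3 and 229 RPKM in the lung tumors. It was the gene of the 17 that lay above both lung tumors in every brain tumor, and its log2 fold change was 1.11 (SE 0.48, limma adjusted p = 0.474). TAPBP, which encodes tapasin, had 11.5, 13.9 and 10.47 RPKM in the brain tumors, against 1.27 and 12.2 RPKM in the lung tumors.

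Lung tumor 1 was the lowest library for 4 of the 17 tested class I genes, and for 5908 of all 14423 tested human genes. NLRC5 had 15.8, 11.1 and 9.42 RPKM in the brain tumors, against 1.62 and 21.99 RPKM in the lung tumors, and TAP1 had 9.11, 5.27 and 6.14 RPKM in the brain tumors, against 2.94 and 17.5 RPKM in the lung tumors. For both genes the brain tumors lay between the 2 lung tumors. In lung tumor 1, NLRC5 and TAPBP each rested on 11 reads. Without lung tumor 2, 4 genes were called, among them ERAP1, TAPBP and NLRC5 with log2 fold changes of 1.94, 2.51 and 2.29, and 2183 human genes were called in all. Without lung tumor 1 the log2 fold change of NLRC5 was -0.84 and 0 genes of the set were called, so the direction of NLRC5 rested on which lung tumor was used.

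Class II transcripts were at or near 0 in the human table, and none of the 5 human class II genes could be tested. HLA-DRB1, a class II beta chain, had 1, 1 and 0 reads in the brain tumors, against 1 and 14 reads in the lung tumors. CD74, the invariant chain that guards the class II groove until a peptide is loaded, had 1, 0 and 0 reads in the brain tumors, against 1 and 2 reads in the lung tumors. In the mouse table of the same libraries Cd74 had 324, 102 and 29 reads in the brain tumors, against 93 and 12858 reads in the lung tumors. HLA-DMA, part of the peptide exchange factor, had 0.930, 0.699 and 0.918 RPKM in the brain tumors, against 1.20 and 0.598 RPKM in the lung tumors. Human blood and immune markers summed to 0.499 to 1.47 RPKM in the brain tumors, against 0.971 to 1.86 RPKM in the lung tumors.

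In the host, class I genes from the heavy chains to the peptide supply were lower in brain tumors than in lung tumors. Of 34 class I genes 27 could be tested, and 14 fell and 0 rose in brain tumors, where 8.12% of all tested mouse genes fell and 14.3% rose. Values of 19 lay below both lung tumors in every brain tumor and those of 0 lay above, where 26.2% and 30% of all tested mouse genes did so. The median log2 fold change of the 27 was -1.99, beside 0.08 over all tested mouse genes. H2-M2, 1 of the 14, passed the filter through lung tumors alone, so its difference was built into its selection, and 13 remain without it. In these bulk samples, fewer cells of a type and less RNA per cell cannot be told apart.

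H2-K1 and H2-D1 encode the classical heavy chains of the mouse. H2-K1 had 259, 138 and 73.3 RPKM in the brain tumors, against 1438 and 1251 RPKM in the lung tumors. All brain values were well under both lung values, and H2-K1 fell by 3.27 on the log2 scale (SE 0.56, limma adjusted p = 0.0119). H2-D1 had 616, 199.8 and 241 RPKM in the brain tumors, against 1653 and 1821 RPKM in the lung tumors, and fell by 2.48 on the log2 scale (SE 0.55, limma adjusted p = 0.0273). Their light chain, B2m, had 509, 381 and 146 RPKM in the brain tumors, against 2392 and 1841 RPKM in the lung tumors, and fell by 2.78 on the log2 scale (SE 0.60, limma adjusted p = 0.0244). The 2 lung tumors were close to each other for these chains, with 3091 and 3072 RPKM for H2-K1 and H2-D1 summed, against 875, 337 and 314 RPKM in the brain tumors.

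**Figure D2:**
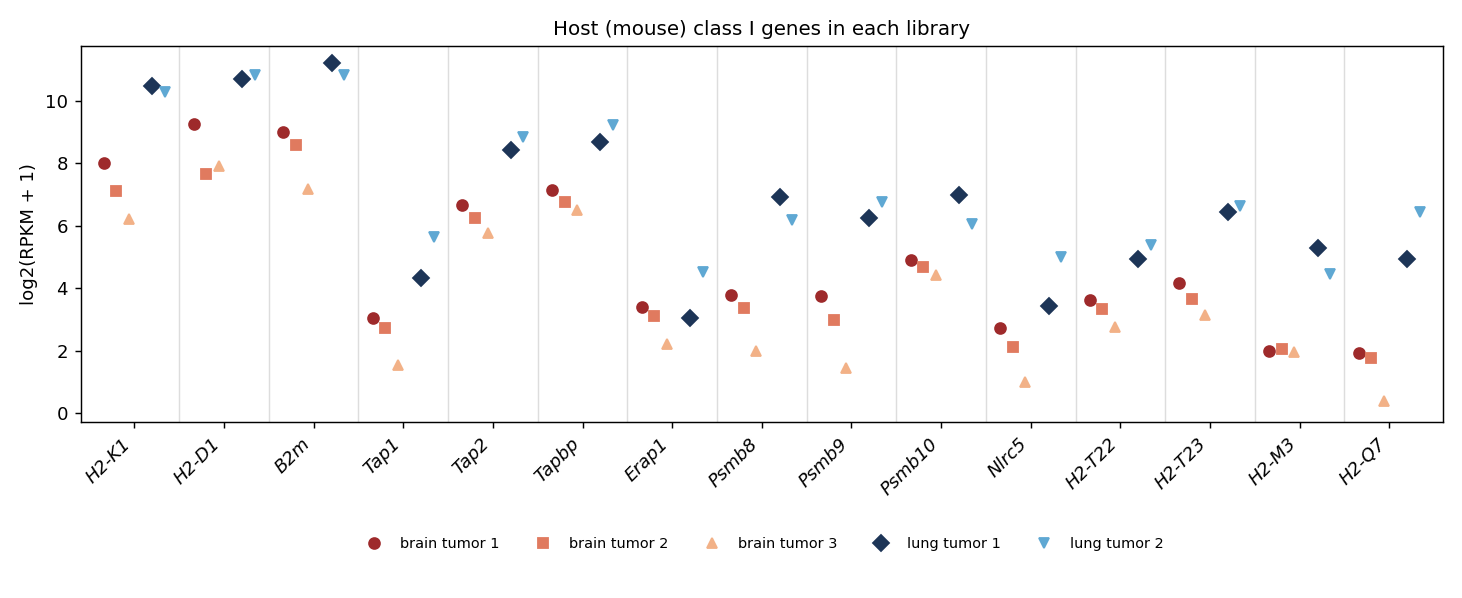
Levels of host (mouse) class I genes as log2(RPKM + 1), with 1 point per library, brain tumors left of lung tumors for each gene. Brain tumor points lie below both lung tumor points for every gene drawn except Erap1, and brain tumor 3 is lowest for all but H2-D1.

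The peptide supply genes fell with the heavy chains. Tap1 and Tap2, the subunits of the peptide transporter, both fell, with log2 fold changes of -2.55 and -2.42 and limma adjusted p of 0.0396 and 0.00866. Tap2 had 100.1, 74.8 and 53.4 RPKM in the brain tumors, against 346 and 461 RPKM in the lung tumors. Tapbp, for tapasin, had 142, 107 and 89.4 RPKM in the brain tumors, against 409 and 598 RPKM in the lung tumors, and fell by 2.15 on the log2 scale (SE 0.35, limma adjusted p = 0.0106). Erap1 did not pass the test, with 9.52, 7.59 and 3.67 RPKM in the brain tumors, against 7.35 and 22.02 RPKM in the lung tumors. Lung tumor 1, with 7 Erap1 reads, lay within the brain range for this gene, and the adjusted p of Erap1 was 0.335 with limma. The log2 fold change of Erap1 was -0.89, and was -1.62 without lung tumor 1 and -0.15 without lung tumor 2.

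All 3 immunoproteasome subunits fell. Psmb8 had 12.8, 9.29 and 2.99 RPKM in the brain tumors, against 122 and 72.6 RPKM in the lung tumors, and fell by 3.52 on the log2 scale (SE 0.61, limma adjusted p = 0.0126). Psmb9 had 12.4, 6.87 and 1.72 RPKM in the brain tumors, against 75.7 and 108 RPKM in the lung tumors, and fell by 3.79 on the log2 scale (SE 0.71, limma adjusted p = 0.0158). Psmb10 fell by 1.85 on the log2 scale, with a limma adjusted p of 0.0234. Set against the standard subunit that each replaces, the groups did not overlap either. The ratio of Psmb8 to Psmb5 RPKM was 1.55, 0.946 and 0.307 in the brain tumors, against 5.03 and 10.06 in the lung tumors. The ratio of Psmb9 to Psmb6 was 0.0993, 0.0691 and 0.0142 in the brain tumors, against 0.232 and 0.881 in the lung tumors. Some of these ratios rest on few reads, with 5 for Psmb5 and 13 for Psmb9 in lung tumor 1, and 11 for Psmb9 in brain tumor 3. In the cancer cells the ratio of PSMB8 to PSMB5 overlapped between groups, with 0.0172, 0.0168 and 0.0272 in the brain tumors, against 0.0104 and 0.0235 in the lung tumors.

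Of 16 tested nonclassical class I genes, 5 fell and 11 were not called, beside the 8.12% of all tested mouse genes that fell. H2-T23, which encodes Qa-1, the mouse counterpart of HLA-E, had 16.9, 11.7 and 7.90 RPKM in the brain tumors, against 86.4 and 98.0 RPKM in the lung tumors, and fell by 2.88 on the log2 scale (SE 0.39, limma adjusted p = 0.00602). H2-M3, which presents formylated peptides, had 3.01, 3.18 and 2.92 RPKM in the brain tumors, against 38.1 and 21.1 RPKM in the lung tumors. Its 3 brain values were nearly equal, and it fell by 2.86 on the log2 scale (SE 0.42, limma adjusted p = 0.00752). H2-Q7, a Qa-2 gene, had 2.81, 2.40 and 0.321 RPKM in the brain tumors, against 29.8 and 86.7 RPKM in the lung tumors, and fell by 4.34 on the log2 scale (SE 0.70, limma adjusted p = 0.0101). H2-T22 also fell, with a log2 fold change of -1.91 and a limma adjusted p of 0.0252. The other of the 5 was H2-M2, which was at no more than 2.96 RPKM, with 1 read in lung tumor 1. Nlrc5 had 5.64, 3.35 and 0.986 RPKM in the brain tumors, against 9.78 and 31.0 RPKM in the lung tumors, and its log2 fold change of -2.27 (SE 0.73) had a limma adjusted p of 0.0744. In lung tumor 1 Nlrc5 rested on 4 reads.

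The number of host calls depended on the brain tumors used. Without brain tumor 2, 3 MHC genes of either class were called, without brain tumor 3, 7, and without brain tumor 1, 11, against 15 with all libraries. Over all mouse genes the same fits called 1245, 1370 and 1642, against 3457 with all libraries. H2-T23 and H2-Q7 were called under all 16 alternative settings, while H2-K1, Psmb8 and Psmb9 missed the threshold only without brain tumor 2, where H2-K1 had an adjusted p of 0.0655 and a log2 fold change of -3.27 with limma. B2m, Tap1, H2-T22, Psmb10 and H2-M2 missed it whichever of the 3 brain tumors was left out, where B2m had log2 fold changes of -3.15, -2.94 and -2.25 and limma adjusted p of 0.0502, 0.0894 and 0.0653 without brain tumors 1, 2 and 3. With replicate number as a block, 5 were called, beside 1484 of all mouse genes. These 5 were H2-K1, H2-Q7, H2-T23, Psmb8 and Psmb9.

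**Figure D3:**
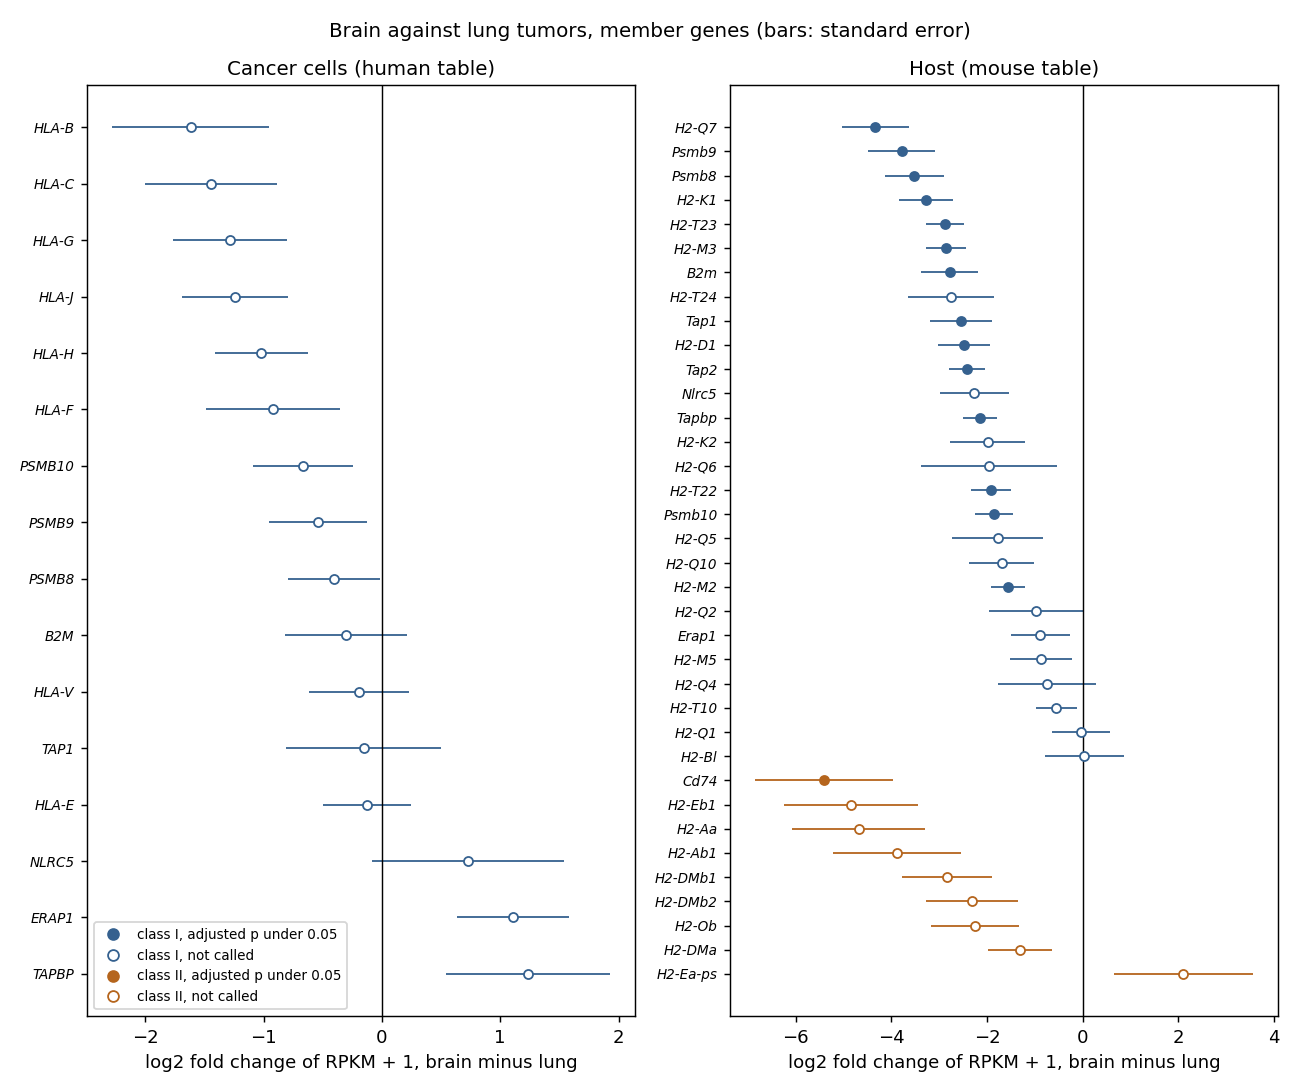
Log2 fold changes (brain minus lung tumors) of tested class I and class II genes of the cancer cells and of the host, with standard errors from limma as bars and filled points for genes called at an adjusted p under 0.05. Host genes lie mostly below 0 and 15 are filled, and no human point is filled.

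Of 9 tested host class II genes 1 fell in brain tumors, a share near the 8.12% of all tested mouse genes, and the values spread widely. That gene was Cd74, with 86.8, 15.1 and 2.44 RPKM in the brain tumors, against 291 and 1768 RPKM in the lung tumors. The values did not overlap but spanned a wide range within each group, and Cd74 fell by 5.41 on the log2 scale (SE 1.44, limma adjusted p = 0.0460). This call was close to the threshold, with limma adjusted p of 0.0160 to 0.136 under the alternatives, of which 8 of 16 kept it. Without brain tumor 2, brain tumor 3 or lung tumor 2 the adjusted p of Cd74 was 0.136, 0.122 and 0.0692. The median log2 fold change of the 9 genes was -2.84, and 7 of them lay below both lung tumors in every brain tumor, where 26.2% of all tested mouse genes did so.

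Of the chains of the I-A and I-E molecules, H2-Aa, H2-Ab1 and H2-Eb1 followed the same order of libraries. H2-Aa had 63.9, 6.41 and 2.59 RPKM in the brain tumors, against 119 and 787 RPKM in the lung tumors, giving a difference of -4.68 on the log2 scale (SE 1.39, limma adjusted p = 0.0611). H2-Ab1 had 59.7, 8.24 and 5.96 RPKM in the brain tumors, against 67.1 and 797 RPKM in the lung tumors, giving a difference of -3.89 on the log2 scale (SE 1.33, limma adjusted p = 0.0874). H2-Eb1 had 26.2, 6.73 and 0.479 RPKM in the brain tumors, against 67.6 and 552 RPKM in the lung tumors, giving a difference of -4.85 on the log2 scale (SE 1.41, limma adjusted p = 0.0578). For all 3 chains brain tumor 1 was the highest brain tumor, and for H2-Ab1 it came near lung tumor 1. The peptide exchange genes H2-DMa, H2-DMb1 and H2-DMb2 had log2 fold changes of -1.30, -2.84 and -2.32. In lung tumor 1 they rested on 2, 2 and 1 reads, and for H2-DMa this library lay within the brain range. Ciita, not tested, had 9, 1 and 1 reads in the brain tumors, against 0 and 335 reads in the lung tumors.

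**Figure D4:**
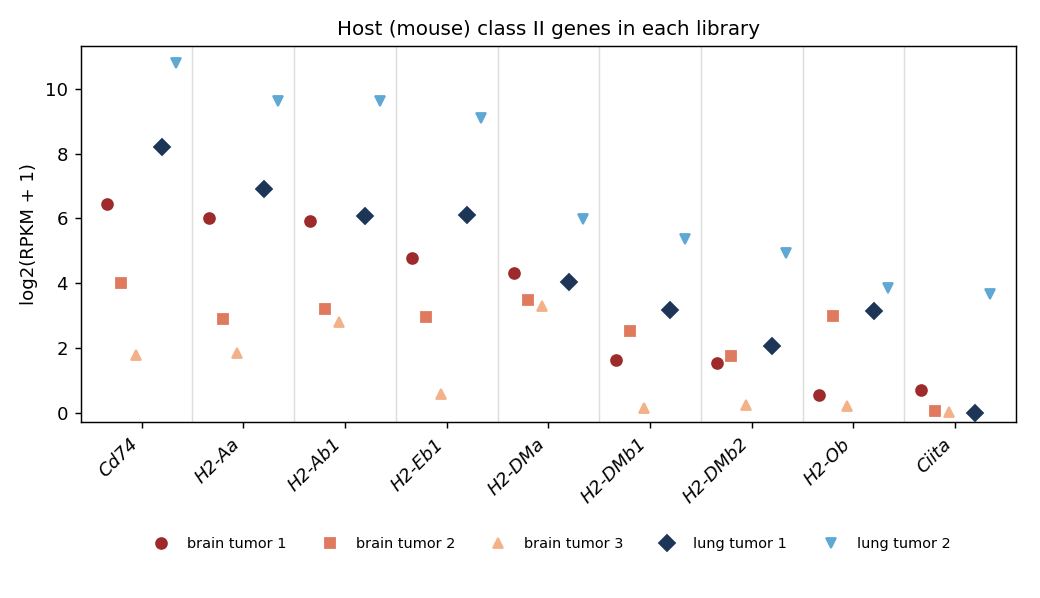
Levels of host (mouse) class II genes as log2(RPKM + 1), with 1 point per library, brain tumors left of lung tumors for each gene. Lung tumor 2 is highest for every gene drawn, and lung tumor 1 lies within the brain range for H2-DMa and is listed at 0 for Ciita.

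The 2 lung tumors were further apart in class II than in most class I genes, as single libraries with no test. The ratio of lung tumor 2 to lung tumor 1 had a median of 6.34 over 8 class II genes and ranged from 1.68 to 11.9. Among these 8, H2-DMb2, H2-DMa, H2-DMb1 and H2-Ob rested on 1, 2, 2 and 3 reads in lung tumor 1. Over 25 class I genes the median was 1.33, with a range of 0.263 to 19.2, beside 1.08 over all tested mouse genes. Both ends of that range, H2-M5 and H2-Q6, rested on 2 reads in lung tumor 1. The summed RPKM of H2-Aa, H2-Ab1 and H2-Eb1, set against that of H2-K1 and H2-D1, was 0.171, 0.0634 and 0.0287 in the brain tumors, against 0.0820 and 0.695 in the lung tumors. Brain tumor 1 was therefore above lung tumor 1 in this ratio.

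Markers of antigen-presenting and other cells also differed between libraries, not all in the same direction. Macrophage and monocyte markers, 10 genes with 0 listed at 0 in any library, summed to 924, 727 and 184 RPKM in the brain tumors, against 4852 and 4730 RPKM in the lung tumors. Microglia markers, 8 genes, summed to 535, 495 and 141 RPKM in the brain tumors, against 320 and 152 RPKM in the lung tumors. Microglia sums overlapped between the groups. The macrophage sum of the lung tumors was mostly Lyz2, and the other 9 markers summed to 554, 475 and 149 RPKM in the brain tumors, against 2076 and 515 RPKM in the lung tumors, which put lung tumor 2 within the brain range. Dendritic cell markers, 8 genes, summed to 41.7, 23.5 and 21.9 RPKM in the brain tumors, against 4.91 and 147 RPKM in the lung tumors, with 7 at 0 in lung tumor 1, Itgax among them, and 0 at 0 in lung tumor 2. B cell markers, 7 genes, summed to 3.82, 0.512 and 2.98 RPKM in the brain tumors, against 14.2 and 73.0 RPKM in the lung tumors, with 5 at 0 in lung tumor 1 and Ms4a1 at 0 in all 3 brain tumors. Endothelial markers summed to 173, 127 and 112 RPKM in the brain tumors, against 218 and 1568 RPKM in the lung tumors. The part of these cell types, and of the low mouse depth of lung tumor 1, in the class I and class II values was not tested.

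A different set of host genes did not follow the difference between brain and lung tumors. H2-Ea-ps, the symbol under which the reference lists the alpha chain of I-E because the reference strain does not express it, had 33.1, 0 and 1.32 RPKM in the brain tumors, against 0 and 0 RPKM in the lung tumors. These were 63, 0 and 8 reads in the brain tumors, and it was the 1 tested class II gene with a log2 fold change above 0, at 2.10 (limma adjusted p = 0.334), having passed the filter through brain tumors alone. Its ratio to H2-Aa RPKM was 0.518 in brain tumor 1 and 0.511 in brain tumor 3. In lung tumor 2, where H2-Aa had 3171 reads, a count of 0 allows a ratio of at most 0.00103, taking 3 reads as the limit for counting error. In brain tumor 2 and lung tumor 1 the same limit was 0.136 and 0.155. Brain tumors 1 and 3 thus stood apart from the other libraries in this ratio.

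Genes of the H2-Q region also split the brain tumors. H2-Q6 had 22.3, 1.43 and 4.51 RPKM in the brain tumors, against 5.50 and 106 RPKM in the lung tumors. H2-Q4 had 21.8, 1.54 and 6.20 RPKM in the brain tumors, against 5.76 and 22.3 RPKM in the lung tumors. H2-Q5 had 8.31, 0 and 3.41 RPKM in the brain tumors, against 12.7 and 9.26 RPKM in the lung tumors. Brain tumor 2 was the lowest of the 5 libraries for 8 of the 27 tested class I genes, these 3 included, and brain tumor 3 for 18. Over all 15431 tested mouse genes, brain tumors 2 and 3 were lowest for 1548 and 3793. The ratio of H2-Q6 to H2-Q7 RPKM was 7.96, 0.596 and 14.1 in the brain tumors, against 0.184 and 1.22 in the lung tumors. Some of these values rest on few reads, with 4 for H2-Q7 in brain tumor 3 and, in lung tumor 1, 2 for H2-Q6 and 3 each for H2-Q4 and H2-Q5. The H2 haplotype of the hosts is not stated in the labels, the H2-Q genes are near-identical, and the part of either in these values was not tested.

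**Figure D5:**
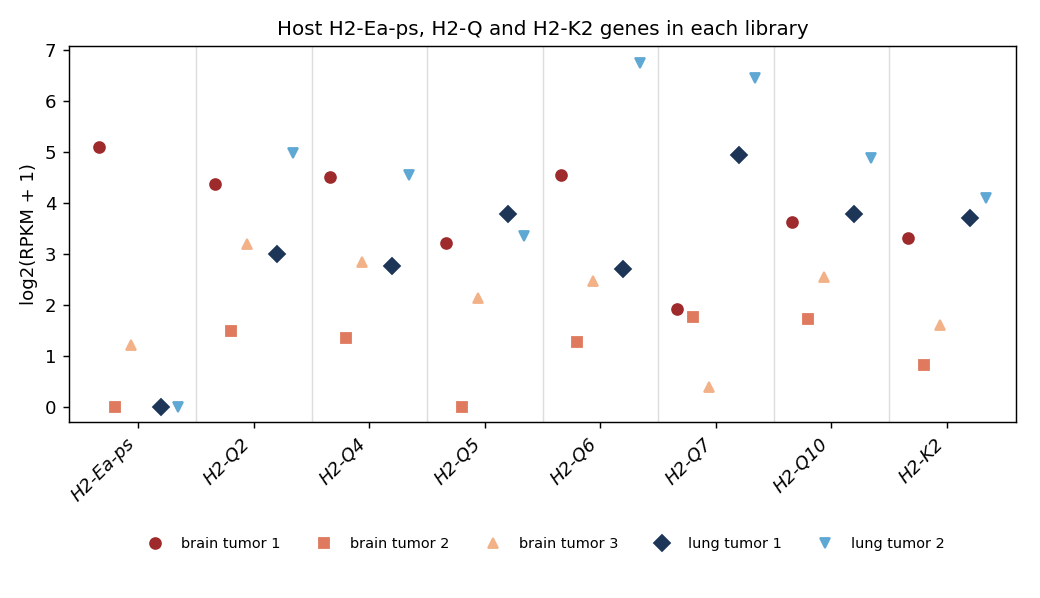
Levels of H2-Ea-ps, H2-Q genes and H2-K2 of the host as log2(RPKM + 1), with 1 point per library, brain tumors left of lung tumors for each gene. H2-Ea-ps is above 0 in brain tumors 1 and 3 alone. Brain tumor 2 lies below brain tumors 1 and 3 for H2-Q2, H2-Q4, H2-Q5, H2-Q6, H2-Q10 and H2-K2, but not for H2-Q7.

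Genes around the pathway were counted in the same fit, in which 8.12% of all tested mouse genes fell and 14.3% rose. In the host, 3 of 8 tested chaperones and loading factors of the endoplasmic reticulum fell, with log2 fold changes of -1.67 for Hspa5, -1.59 for Pdia3 and -1.35 for Calr. Of 5 proteasome genes 2 fell, the activator subunits Psme2 and Psme1, with log2 fold changes of -2.25 and -1.84. Of 6 class II route genes 1 fell, Ifi30, a lysosomal thiol reductase, with a log2 fold change of -3.12 and 33.1, 24.6 and 13.9 RPKM in the brain tumors, against 369.9 and 111 RPKM in the lung tumors. Of 16 transactivators and interferon gamma signalling genes 1 fell, the transcription factor Irf1, a share below that of all genes. Its log2 fold change was -2.29, with a limma adjusted p of 0.0499, close to the threshold. Values of 8 of the 16 lay below both lung tumors in every brain tumor and those of 1 lay above. Over all tested mouse genes 26.2% and 30% did so. The median log2 fold change of the 16 was -0.66, beside 0.08 over all tested mouse genes. Of 7 MHC-like genes 4 fell, of which Cd1d1, Azgp1 and Raet1e passed the filter through lung tumors alone, so that their difference was built into their selection. The other was Fcgrt, the neonatal Fc receptor chain, with a log2 fold change of -3.11. None of the genes in these 5 lists rose. Ifng, for interferon gamma, was listed at 0 in all brain tumors and in lung tumor 1, and had 0.153 RPKM in lung tumor 2.

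In the cancer cells, 0 genes of the same 5 lists were called, with 9, 5, 4, 15 and 6 tested, beside 0.00693% of all tested human genes. At an unadjusted p under 0.05 there were 1, 0, 1, 1 and 0, and their median log2 fold changes were 0.08, -0.64, -0.53, 0.44 and 0.33. CALR, a chaperone of class I folding, had 1292, 1140 and 986 RPKM in the brain tumors, against 1004 and 1238 RPKM in the lung tumors. RFX5, which binds MHC promoters, had 206, 238 and 157 RPKM in the brain tumors, against 78.0 and 163 RPKM in the lung tumors.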

How the data were processed

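The authors deposited RPKM in 1 human and 1 mouse table for 3 brain and 2 lung tumors. Per the submitters' processing notes the genome builds were mm10 (GRCm38) and hg38 (GRCh38). How reads were aligned, counted and divided between the species, and which gene lengths were used, is not given in the sources used here. Whole reads were recovered from ratios between libraries for 21131 human and 20633 mouse genes, up to a common divisor, and were checked on simulated data; the lengths they imply are uneven, so RPKM were compared between libraries, not genes. Genes at 1 RPKM or more in 2 libraries, 14423 human and 15431 mouse, were tested as log2(RPKM + 1) with limma 3.58.1 in R 4.3.3 (eBayes with trend, brain minus lung, both directions, Benjamini-Hochberg adjustment per species). Fold changes understate low genes. An exact permutation of 3 against 2 libraries cannot reach 0.05 and was not used. Human coordinates are from RefSeq (GRCh38.p14). Members and lists were chosen with earlier results of these data known. Up to 4 called genes of a list were named. In the cancer cells no list gene was called, and only CALR and RFX5 were named, from those with the highest mean RPKM. Of 16 alternatives, 2 (voom on recovered reads and a gene-length correction) were chosen after seeing the data. Some genes of the set are counted here but not reported singly.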

Additional observations from a re-analysis of the deposited data

How the results depend on the processing

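Human genes called numbered 1, against 114 with the replicate block, 0 with voom and 0 to 2183 when 1 library was left out. Human MHC genes called were 0, and 0 to 4 when 1 library was left out. Mouse genes called numbered 3457, against 2295 with no filter, 1484 with the replicate block and 1245 to 8084 when 1 library was left out. Mouse MHC genes called numbered 15, against 5 with the replicate block, 27 with voom and 3 to 22 when 1 library was left out. Only the numbers 1 and 2 are shared by the groups and nothing in the labels pairs them, so brain tumor 3 adds nothing to the blocked difference. The share of higher calls among mouse genes was 63.8%, and 50.7% with voom. The median log2 fold change over all mouse genes was 0.08, against -0.11 with quantile normalization, -0.15 with voom and 0.21 with median-ratio scaling. Directions turned for TAP1 (0.0528 with voom), H2-Bl (-0.63 with quantile normalization and -2.73 with voom) and H2-Q1 (0.025 with a pseudocount of 0.5, 0.49 with 0.1 and 0.0278 with median-ratio scaling). Leaving out 1 library gave log2 fold changes of -1.08 to 0.48 for B2M, -0.38 to 0.13 for HLA-E, -0.84 to 2.29 for NLRC5, -1.27 to 0.96 for TAP1, -0.0377 to 2.51 for TAPBP, -1.01 to 1.07 for H2-Bl, -0.82 to 0.25 for H2-Q1, -1.96 to 0.0234 for H2-Q2, -1.64 to 0.14 for H2-Q4 and -3.97 to 0.062 for H2-Q6. The cause was not tested. Depth limits lung tumor 1, with 231044 mouse reads.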
